A study of Homo sapiens with 6 samples.

Results

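The glycolysis and hypoxia response genes examined here are 47 genes chosen by name for their function: glucose and lactate transporters, the enzymes of glycolysis and of lactate production, the enzymes around fructose 2,6-bisphosphate and pyruvate, the hypoxia-inducible factors (HIF) with their oxygen sensors, and genes known to be induced when oxygen is low. They were chosen with earlier results of these data known. All 47 of them were found among the 26255 genes listed in the expression table. The RNA-seq compared 3 libraries of NCI-H1299 cells, a human lung cancer cell line, that carried a control shRNA (shControl) with 3 libraries of the same line that carried an shRNA against Ephexin1 (shEphexin1), a guanine nucleotide exchange factor encoded by NGEF. Both shRNAs were expressed from a pSilencer2.1-U6 plasmid, named as the neo version in the labels and as the hygro version in the methods of the study, and both groups were grown in RPMI-1640 with serum. No group was grown in low oxygen as far as the labels say. The study made the knockdown cells as stable clones, and the 3 shEphexin1 library names share a stem. They may thus come from 1 clone, in which case n = 3 and all p values measure the spread between libraries and not between separately derived knockdown cells.

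Cells break glucose down to pyruvate through the enzymes of glycolysis, and many tumour cells then turn much of the pyruvate into lactate and export it even when oxygen is present. When oxygen falls, the prolyl hydroxylases that mark HIF alpha subunits for VHL-dependent destruction lose activity. The stabilised factors then bind short DNA motifs near their target genes, among them many glycolytic enzymes, the glucose transporter SLC2A1, the mitophagy receptor BNIP3 and the angiogenic factor VEGFA. Pyruvate dehydrogenase kinases (PDK) keep pyruvate out of the mitochondrial oxidation pathway and so favour lactate production.

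Expression was read as FPKM, which divides fragments by the length of the transcript and the size of the library, so levels can be compared between genes. The read numbers are unknown, and counting error is therefore not given. A value of 0 is reported only as listed, because H3F3A, a histone gene that every cell uses, was listed at 0 in all 6 libraries. The libraries listed between 16958 and 17509 genes above 0. The mesenchymal marker VIM was at 1979 to 2670 FPKM and the epithelial marker CDH1 was at 0 in all 6 libraries, as was the lung lineage marker NKX2-1. The summed FPKM of 4 epithelial or carcinoma markers, nearly all of it from KRT18, ranged from 72.8 to 118 in shControl and from 39.1 to 58.4 in shEphexin1. The summed FPKM of 6 immune, endothelial and fibroblast markers ranged from 38.0 to 53.7 in shControl and from 53.6 to 71.6 in shEphexin1. Almost all of this was CD68, a lysosomal gene, and without it the other 5 markers summed to at most 0.181 FPKM in shControl and 0.550 FPKM in shEphexin1, with the leukocyte gene PTPRC at 0 throughout. The part of these markers in the results was not tested, and in bulk RNA a change in the share of cells and a change in RNA per cell cannot be told apart. NGEF, the target of the shRNA, was at 13.3, 11.73 and 16.37 FPKM in the control libraries and 9.814, 8.245 and 10.45 FPKM in the knockdown libraries. Its 3 knockdown libraries were all below the 3 control libraries, at 68.9% of the control mean, with a limma adjusted p of 0.103 and, with the replicate number as a block, 0.00284.

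The test, limma on log2(FPKM + 0.1), took the 16020 genes that reached 0.1 FPKM in 3 or more of the 6 libraries, with Benjamini-Hochberg adjustment over all of them. All fold changes are on this scale, which understates the change of genes with low values. Of the 47 genes, 42 were tested, and CA9, CA12, EGLN3, FBP1 and NDRG1 were below the filter. In this test 0 of the 42 genes reached an adjusted p of at most 0.025 together with a fold difference of at least 2, a call made for 1.89% of all genes tested. At an adjusted p of at most 0.05 with any fold, PGK1, LDHB, BNIP3 and PGAM1 were downregulated in shEphexin1, 4 genes in all, and 0 were upregulated. With replicate 1 or 3 of either group left out, the count was 2, PGK1 and LDHB. The 4 genes are 9.52% of those tested, and the shares over all genes were 4.32% down, 2.69% up and 7.01% in total. With quantile normalization of the libraries the split was 4 down and 1 up, the latter being the pyruvate kinase gene PKM with a log2 fold change of 0.49. At an unadjusted p of at most 0.05, 13 genes were lower and 0 were higher, and 23.3% of all genes tested passed this limit in limma. Of all genes tested, 2056 were lower and 1681 higher at this limit.

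Libraries with the same replicate number varied together in these values, although no label pairs them. A fit with the replicate number as a block, a pairing read from these same data, is therefore given beside the first. In that fit 17 of the 42 genes were downregulated and 2, SLC2A1 and ENO3, were upregulated, which is 45.2% of the genes against 33.5% of all genes tested. The downregulated share was 40.5% against 19.7% over all genes, and the background for upregulated genes was 13.8%. With replicates 1 and 3 alone, 12 genes were lower and 0 were higher, beside 10.4% and 6.89% of all genes and 17.3% in total. The 3 shEphexin1 values lay below the 3 shControl values for 13 of the 42 genes and above them for 0, while 28.3% of all genes tested had groups that did not overlap, 15.4% lower and 12.8% higher. The log2 fold change was below 0 for 30 genes and above 0 for 12, beside 8185 and 7835 of all genes tested. Its median was -0.14 over the 42 genes, with a range from -0.86 to 0.36, and -0.0093 over all genes tested.

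**Figure D1:**
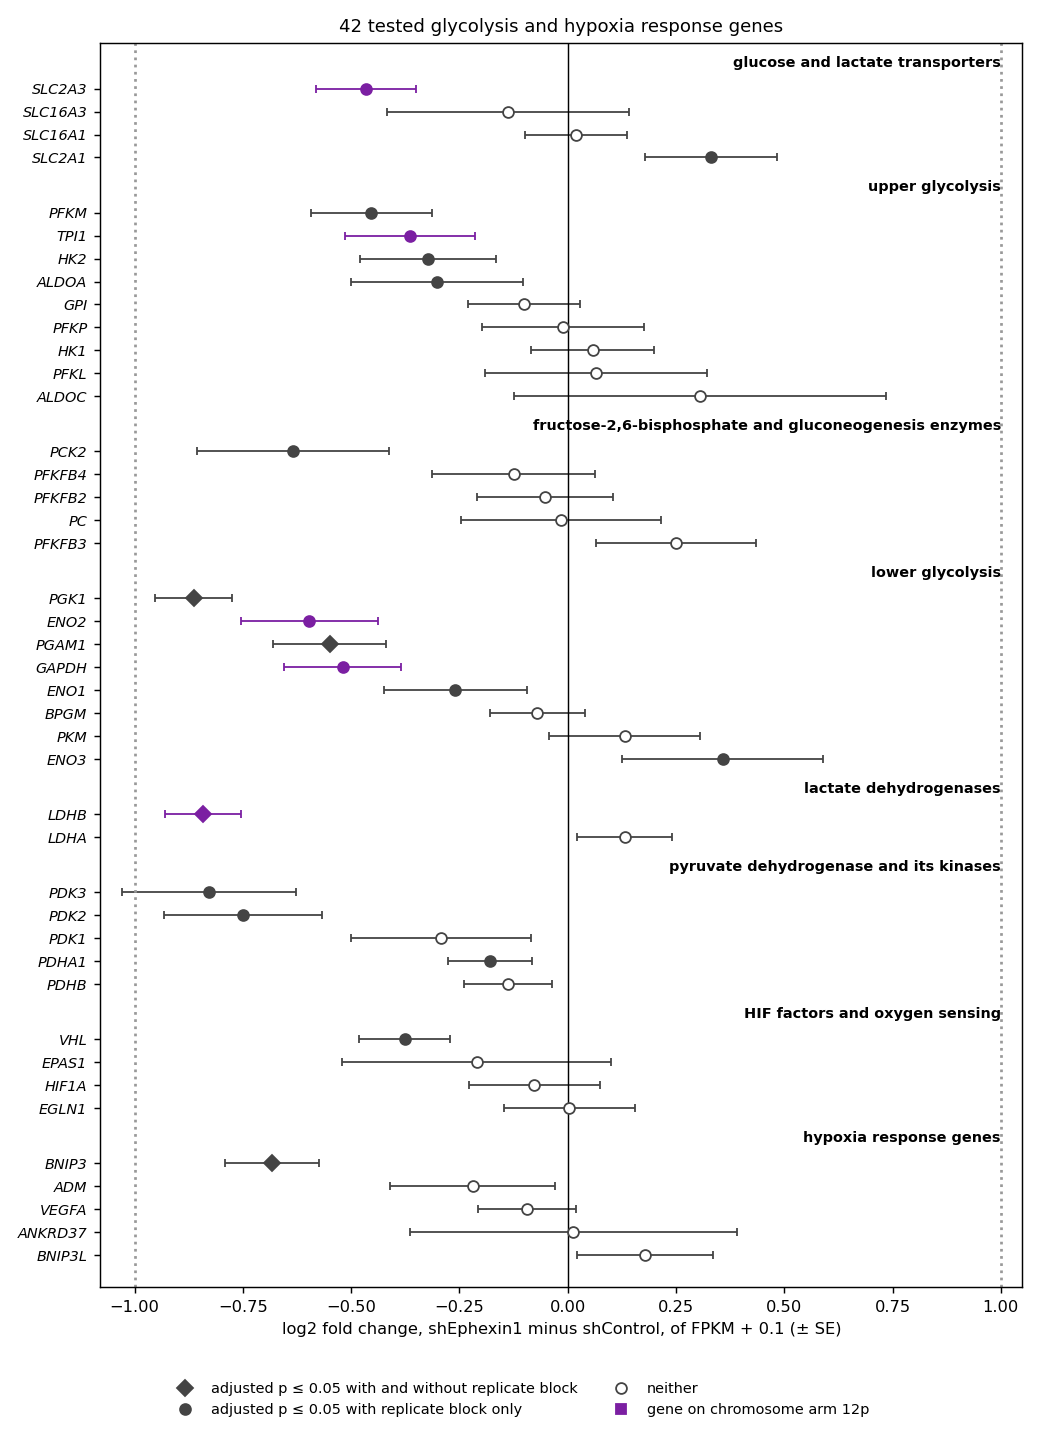
The log2 fold change of each of the 42 tested genes (shEphexin1 minus shControl, on FPKM + 0.1, horizontal axis) with its standard error, grouped by role, with dotted lines at a 2-fold difference. Diamonds mark PGK1, LDHB, BNIP3 and PGAM1, filled circles the other 15 genes past an adjusted p of 0.05 with the replicate block, and purple the 5 genes on chromosome arm 12p, all of which lie left of 0.

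Among the enzymes of lower glycolysis, 5 of 8 were downregulated and 1 was upregulated with the replicate block, and 2 were downregulated without it. Over all genes tested the shares were 19.7% lower and 13.8% higher with the block, and 4.32% lower without it. The groups by role hold few genes, and their counts were not tested against these shares. PGK1, phosphoglycerate kinase, which makes the first ATP of the pathway, measured 248.6, 232.0 and 255.4 FPKM in shControl, and 136.5, 132.8 and 134.8 FPKM after knockdown. The groups lay far apart, with means of 245 ± 12.01 FPKM (SD, n = 3) and 135 ± 1.86 FPKM (SD, n = 3), and the knockdown mean was 54.9% of the control. The difference was -0.86 on the log2 scale, with a standard error of 0.0890 and an adjusted p of 0.00362 in limma, and the call held with each library left out in turn. PGAM1, phosphoglycerate mutase, the next enzyme, had FPKM values of 371.3, 313.9 and 391.7 in shControl against 250.6, 215.0 and 270.1 in shEphexin1. Replicate 2 was the lowest library of both groups, and each knockdown library was lower than the control library of the same number by 0.54 to 0.57 on the log2 scale. The log2 fold change of PGAM1 was -0.55 (standard error 0.130) and its limma adjusted p of 0.0498 lay just inside the threshold. The call was kept only when shControl replicate 2 was left out (adjusted p = 0.0488) and lost with any of the other 5 libraries left out (adjusted p up to 0.204). With the replicate block the adjusted p was 0.000317.

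GAPDH, the glyceraldehyde-3-phosphate dehydrogenase often used as a reference gene, had the highest level of the 47 genes. It was at 4831, 4261 and 5328 FPKM in the control libraries and 3430, 2953 and 3674 FPKM in the knockdown libraries. The groups did not overlap, the knockdown mean was 69.8% of the control, and the log2 fold change was -0.52 (standard error 0.136). The limma adjusted p was 0.0654 without and 0.00106 with the replicate block. ENO1, the main enolase, measured 1244, 978.4 and 1323 FPKM in shControl, and 1024, 814.6 and 1124 FPKM after knockdown. Its groups overlapped, with replicate 2 low in both, but the paired log2 differences of -0.28, -0.26 and -0.24 were close to each other, and the adjusted p was 0.00474 with the block and 0.405 without it. The neuronal enolase ENO2 had FPKM values of 15.07, 12.91 and 15.14 in shControl against 9.889, 7.748 and 10.98 in shEphexin1, without overlap (log2 fold change -0.60, adjusted p = 0.0683, with the block 0.00231). The muscle enolase ENO3 went the other way at a low level. It was at 2.42, 2.612 and 3.753 FPKM in the control libraries and 3.132, 3.412 and 4.785 FPKM in the knockdown libraries, with overlapping groups (log2 fold change 0.36, adjusted p = 0.413, with the block 0.0423). PKM, pyruvate kinase, which makes the last ATP of the pathway, measured 892.1, 704.3 and 950.5 FPKM in shControl, and 1023, 739.7 and 1038 FPKM after knockdown, and BPGM, which makes 2,3-bisphosphoglycerate, was at 8.81 and 8.39 FPKM on average. Neither passed the test in either fit, with log2 fold changes of 0.13 and -0.070. Reads of GAPDH, PGK1, ENO1, PGAM1, PKM, TPI1 and LDHA or LDHB can be shared with processed pseudogenes or paralogs of nearly the same sequence, and how the counting split such reads is not given in the sources used here.

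**Figure D2:**
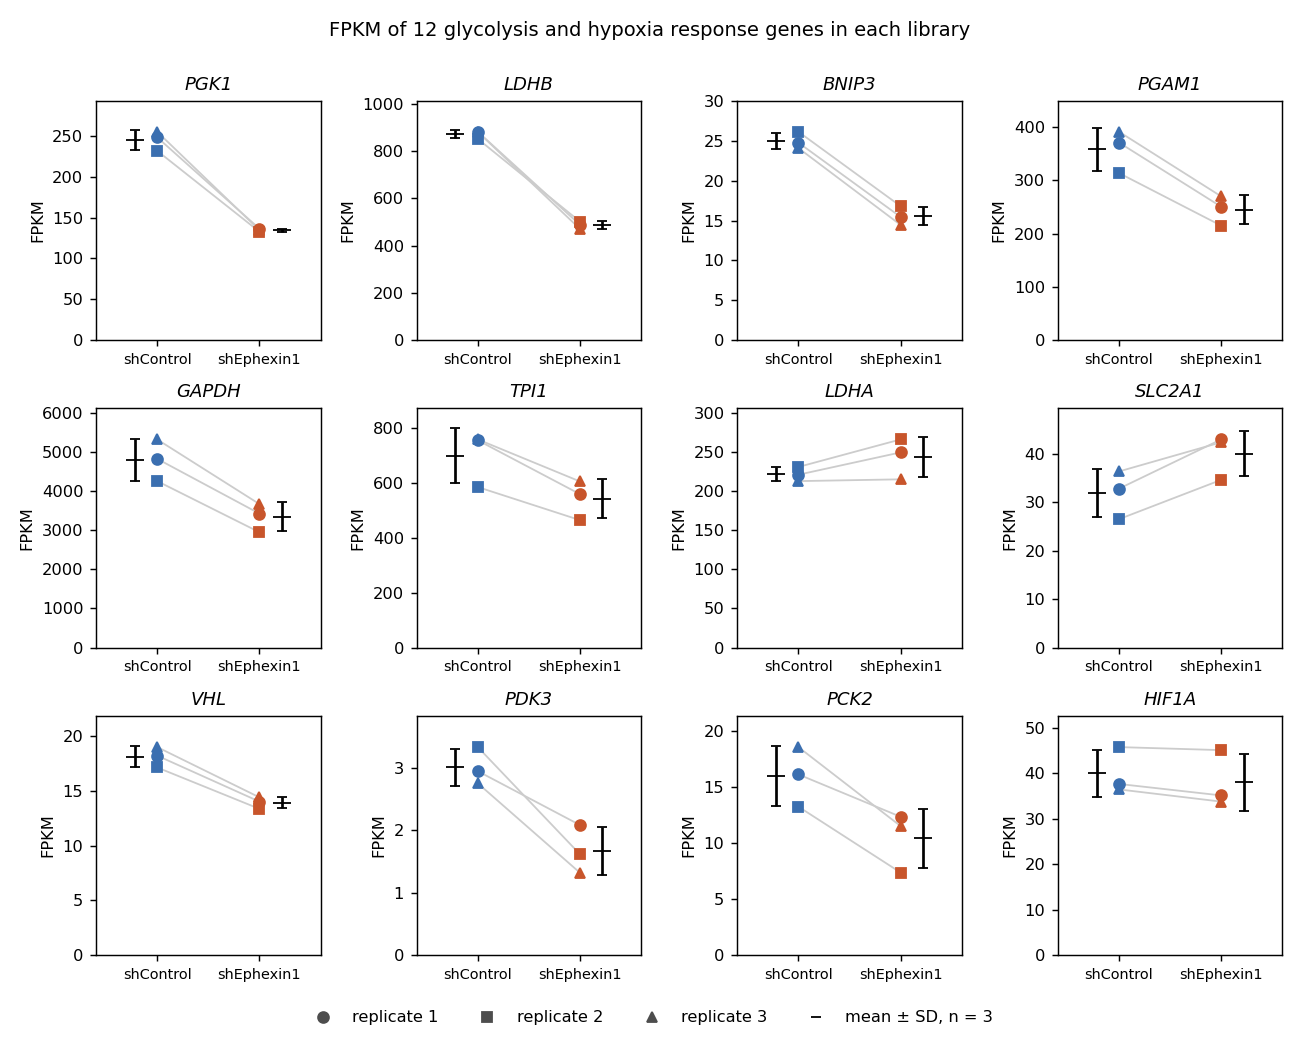
FPKM of 12 genes in each library (vertical axes from 0), with symbols for the replicate number, grey lines joining libraries of the same number, and black bars for mean ± SD (n = 3). The groups lie apart for PGK1, LDHB, BNIP3, PGAM1, GAPDH, VHL, PDK3 and PCK2 and overlap for TPI1, LDHA, SLC2A1 and HIF1A.

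The lactate dehydrogenases interconvert pyruvate and lactate, through 2 kinds of subunit. LDHB, the subunit that prevails in heart, had FPKM values of 882.1, 851.9 and 881.6 in shControl against 487.6, 501.3 and 470.2 in shEphexin1, with means of 872 ± 17.3 and 486 ± 15.6 FPKM (SD, n = 3). The knockdown mean was 55.8% of the control, the difference on the log2 scale was -0.84, with a standard error of 0.0879 and an adjusted p of 0.00375 in limma, and the call held with each library left out in turn. LDHA, the subunit that prevails in muscle and a textbook HIF target, was at 220.9, 230.8 and 212.7 FPKM in the control libraries and 249.4, 266.0 and 215.0 FPKM in the knockdown libraries. Its groups overlapped, and it passed the test in neither fit (log2 fold change 0.13, standard error 0.110, adjusted p = 0.535, with the block 0.0825).

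The promoters of PGK1, BNIP3, LDHB and LDHA are shown because the first 3 are among the 4 genes that passed the test without the block, while LDHA, a textbook HIF target, did not pass. HIF binds a core motif of 5 bases, ACGTG or GCGTG, and the capitals mark each match on either strand in the 250 bases before the start site of the RefSeq promoter windows on GRCh38.p14, printed 5' to 3' along the gene. A CACGTG holds a match on each strand. The PGK1 window is chrX:78103998-78104247 on the plus strand, that of BNIP3 is chr10:131981924-131982173 on the minus strand, that of LDHB is chr12:21657843-21658092 on the minus strand, and that of LDHA, the upstream window of 2, is chr11:18394313-18394562 on the plus strand.
PGK1: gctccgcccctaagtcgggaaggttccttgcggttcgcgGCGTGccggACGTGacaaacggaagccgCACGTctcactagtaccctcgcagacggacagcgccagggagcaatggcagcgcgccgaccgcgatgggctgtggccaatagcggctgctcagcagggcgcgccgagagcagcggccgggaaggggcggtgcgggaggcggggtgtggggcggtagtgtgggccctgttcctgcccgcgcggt
BNIP3: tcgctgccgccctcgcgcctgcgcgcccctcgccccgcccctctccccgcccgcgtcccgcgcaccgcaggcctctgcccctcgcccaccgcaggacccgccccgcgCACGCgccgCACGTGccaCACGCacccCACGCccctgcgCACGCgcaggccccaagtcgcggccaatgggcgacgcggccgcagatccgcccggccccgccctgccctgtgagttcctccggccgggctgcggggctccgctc
LDHB: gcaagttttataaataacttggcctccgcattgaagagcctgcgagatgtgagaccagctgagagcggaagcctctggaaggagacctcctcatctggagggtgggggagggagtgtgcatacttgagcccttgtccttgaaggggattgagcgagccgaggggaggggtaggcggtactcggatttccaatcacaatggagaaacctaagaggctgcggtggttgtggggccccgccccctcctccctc
LDHA: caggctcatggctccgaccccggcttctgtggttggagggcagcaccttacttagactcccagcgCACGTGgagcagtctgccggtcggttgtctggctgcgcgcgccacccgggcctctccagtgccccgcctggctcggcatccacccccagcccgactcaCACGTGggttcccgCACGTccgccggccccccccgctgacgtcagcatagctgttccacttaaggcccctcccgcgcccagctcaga
Before the start site the PGK1 promoter held 3 matches, that of BNIP3 held 6 and that of LDHA held 5, whereas that of LDHB held 0 and had 1 match in the 50 bases after the start site. PGAM1, the other gene that passed without the block, had 1 window, with 0 matches. Windows were found for 40 of the 47 genes, and 47 of their 72 windows of 300 bases (65.3%) held at least 1 match, against 48.4% of the 35116 windows of all genes. No window was used for VEGFA, NDRG1, SLC2A3, VHL, PFKFB2, SLC16A1 and BNIP3L. A match is a run of letters and does not show that a factor binds there.

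Of the 4 glucose and lactate transporters, 1 fell and 1 rose with the replicate block, beside 19.7% and 13.8% of all genes. SLC2A3 (GLUT3), a high-affinity glucose transporter, measured 20.77, 21.95 and 21.06 FPKM in shControl, and 16.32, 16.21 and 13.69 FPKM after knockdown. The groups did not overlap (log2 fold change -0.47, adjusted p = 0.0561, with the block 0.00407). SLC2A1 (GLUT1), the transporter that supplies basal glucose to most cells, had FPKM values of 32.8, 26.5 and 36.35 in shControl against 42.96, 34.61 and 42.37 in shEphexin1. The groups overlapped, but each knockdown library was above the control library of its number, by 0.39, 0.38 and 0.22 on the log2 scale (log2 fold change 0.33, adjusted p = 0.246, with the block 0.00548). The lactate exporters did not pass the test. SLC16A3 (MCT4) was at 102.3, 68.9 and 119.1 FPKM in the control libraries and 100.1, 58.62 and 107.6 FPKM in the knockdown libraries, and SLC16A1 (MCT1) was at 30.6 ± 1.02 and 31.2 ± 3.70 FPKM (SD, n = 3).

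In upper glycolysis, 4 of 9 enzymes were downregulated with the replicate block and 0 without it, beside 19.7% and 4.32% of all genes. TPI1, triosephosphate isomerase, measured 753.9, 583.8 and 757.1 FPKM in shControl, and 558.0, 463.5 and 604.2 FPKM after knockdown. The groups overlapped through the low control library of replicate 2 (log2 fold change -0.36, adjusted p = 0.200, with the block 0.00176). ALDOA, the main aldolase, had FPKM values of 438.7, 336.8 and 507.3 in shControl against 367.9, 270.4 and 402.9 in shEphexin1, again lower in each pair but overlapping (log2 fold change -0.30, adjusted p = 0.422, with the block 0.00239). PFKM, the muscle form of phosphofructokinase, the main control point of the pathway, was at 43.53, 36.0 and 48.79 FPKM in the control libraries and 33.24, 28.14 and 31.72 FPKM in the knockdown libraries, without overlap (log2 fold change -0.45, adjusted p = 0.102, with the block 0.00347). The hexokinase HK2, which traps glucose in the cell, measured 5.652, 4.816 and 5.616 FPKM in shControl, and 4.844, 3.62 and 4.394 FPKM after knockdown, and only its lowest control library lay within the knockdown range (log2 fold change -0.32, adjusted p = 0.275, with the block 0.0409).

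The other 5 enzymes of upper glycolysis passed the test in neither fit. HK1 had FPKM values of 16.46, 14.63 and 18.27 in shControl against 18.29, 14.69 and 18.48 in shEphexin1. GPI, glucose-6-phosphate isomerase, was at 178.9, 158.1 and 192.1 FPKM in the control libraries and 171.7, 141.8 and 181.1 FPKM in the knockdown libraries. PFKP, the platelet form of phosphofructokinase and the highest of the 3 forms here, measured 96.82, 71.15 and 104.2 FPKM in shControl, and 94.09, 72.57 and 102.9 FPKM after knockdown. HK1, GPI, PFKP, the liver form PFKL and the aldolase ALDOC had log2 fold changes of 0.058, -0.10, -0.011, 0.065 and 0.31, and that of ALDOC, at 1.17 and 1.54 FPKM on average, had a standard error of 0.429.

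Of the enzymes around fructose 2,6-bisphosphate and gluconeogenesis, 5 of 6 were tested and 1 fell, with the replicate block only. With the block 19.7% of all genes fell. PCK2, the mitochondrial phosphoenolpyruvate carboxykinase, had FPKM values of 16.14, 13.26 and 18.58 in shControl against 12.36, 7.382 and 11.53 in shEphexin1, without overlap (log2 fold change -0.63, adjusted p = 0.142, with the block 0.00445). The bifunctional enzymes that set the level of fructose 2,6-bisphosphate, an activator of phosphofructokinase, did not pass the test: PFKFB2, PFKFB3 and PFKFB4 had log2 fold changes of -0.052, 0.25 and -0.12. Pyruvate carboxylase (PC) was at 3.23 and 3.19 FPKM on average. FBP1, a gluconeogenic phosphatase that opposes phosphofructokinase, was listed at 0 in 5 libraries and at 0.0691 FPKM in shEphexin1 replicate 1.

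The 5 genes of the pyruvate dehydrogenase step among the 47 had log2 fold changes below 0, as had 8185 of all 16020 genes tested. With the replicate block 3 of the 5 were downregulated, beside 19.7% of all genes. PDK2, a kinase that switches pyruvate dehydrogenase off, was at 16.25, 13.78 and 20.17 FPKM in the control libraries and 10.14, 8.197 and 11.3 FPKM in the knockdown libraries. The groups did not overlap, and the knockdown mean was 59.0% of the control (log2 fold change -0.75, adjusted p = 0.0540, with the block 0.000675). PDK3, another of these kinases, measured 2.949, 3.335 and 2.755 FPKM in shControl, and 2.086, 1.618 and 1.321 FPKM after knockdown, also without overlap and at 55.6% of the control mean (log2 fold change -0.83, adjusted p = 0.0529, with the block 0.0106). PDK1, the family member known best as a HIF target, was at 4.81 ± 1.28 and 3.84 ± 0.506 FPKM (SD, n = 3) and passed the test in neither fit (log2 fold change -0.29, with the block adjusted p = 0.101). PDHA1, a catalytic subunit of the dehydrogenase itself, had FPKM values of 22.48, 22.49 and 22.54 in shControl against 20.36, 19.11 and 20.12 in shEphexin1, a small difference without overlap (log2 fold change -0.18, adjusted p = 0.322, with the block 0.0397). PDHB was at 51.9 and 47.2 FPKM on average and did not pass. Some genes of this step outside the 47 went the other way, with the block only. DLD, PDK4 and PDPR were upregulated without overlap of the groups (log2 fold changes 0.54, 1.12 and 0.20, limma adjusted p with the block 0.00103, 0.0460 and 0.0253). PDK4 was low, at 0.236 and 0.642 FPKM on average. PDHX, DLAT, PDP1 and PDP2 passed in neither fit.

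Of the 5 HIF genes and oxygen sensors among the 47, only VHL passed the test, and only with the block, where 33.5% of all genes passed. The oxygen sensor HIF1AN, outside the 47, also fell with the block only (log2 fold change -0.25, limma adjusted p = 0.213, with the block 0.0287). With neighbour medians subtracted its log2 fold change was 0.12. EGLN2, likewise outside the 47, passed in neither fit. VHL, the recognition subunit of the ubiquitin ligase that removes HIF alpha, was at 18.2, 17.12 and 18.98 FPKM in the control libraries and 14.01, 13.35 and 14.4 FPKM in the knockdown libraries. The groups did not overlap, and the 3 pairs differed by -0.38, -0.36 and -0.40 on the log2 scale (log2 fold change -0.38, adjusted p = 0.0797, with the block 0.00367). HIF1A, whose protein is controlled mainly by degradation, measured 37.62, 45.72 and 36.42 FPKM in shControl, and 35.1, 45.05 and 33.74 FPKM after knockdown, and the spread between replicates was wider than the difference (log2 fold change -0.077, standard error 0.151). EPAS1, which encodes HIF-2 alpha, was barely expressed, at 0.2785, 0.1781 and 0.2381 FPKM in shControl against 0.1345, 0.2701 and 0.1646 FPKM in shEphexin1. EGLN1 (PHD2), the main prolyl hydroxylase, had FPKM values of 8.107, 9.445 and 7.691 in shControl against 8.501, 9.597 and 7.279 in shEphexin1 (log2 fold change 0.0040, standard error 0.151). EGLN3 (PHD3), a hydroxylase that HIF itself induces, was at 0.0756, 0.1225 and 0.0493 FPKM in shControl but listed at 0 in the 3 shEphexin1 libraries, below the filter for testing.

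Among 8 genes known to be induced in hypoxia, 5 were tested and 1 fell, in both fits. Over all genes 4.32% fell without the block and 19.7% with it. BNIP3, which drives removal of mitochondria, was at 24.81, 26.18 and 24.13 FPKM in the control libraries and 15.47, 16.82 and 14.46 FPKM in the knockdown libraries. The groups lay apart, with means of 25.0 ± 1.04 and 15.6 ± 1.19 FPKM (SD, n = 3) and the difference on the log2 scale was -0.68, with a standard error of 0.109 and an adjusted p of 0.0158 in limma (with the block 0.000505). This call was lost when replicate 1 or 3 of either group was left out, with an adjusted p of up to 0.103. Its paralog BNIP3L, at 25.2 and 28.9 FPKM on average, passed in neither fit and had a log2 fold change of 0.18. VEGFA was at 15.4 ± 0.668 and 14.4 ± 1.19 FPKM (SD, n = 3), the vasodilator peptide gene ADM at 12.5 ± 2.46 and 10.7 ± 1.67 FPKM, and ANKRD37 at 0.527 and 0.542 FPKM on average, and none of these 3 passed in either fit. ADM lay closest to the threshold with the block, at an adjusted p of 0.0507. The carbonic anhydrase genes CA9 and CA12, which are among the most used hypoxia markers, were near 0: CA9 was listed at 0 in all shControl libraries and in shEphexin1 replicate 1 and at 0.190 and 0.173 FPKM in the other 2, and CA12 was at 0.0229 FPKM in shControl replicate 2, at 0.0370 FPKM in shEphexin1 replicate 2 and at 0 elsewhere. NDRG1 was listed at 0 in all 6 libraries.

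Because enzymes of 1 step can replace each other, the share of an isozyme group held by 1 member was computed within each library, which does not depend on library scaling. LDHB held 79.97%, 78.68% and 80.57% of the summed FPKM of LDHA and LDHB in shControl and 66.16%, 65.33% and 68.62% in shEphexin1. The groups lay apart, with a difference in mean share of -13.04 percentage points. SLC2A3 held 40.3 ± 4.50% of SLC2A1 and SLC2A3 in shControl and 28.0 ± 3.75% in shEphexin1 (SD, n = 3). HK2 held 24.6 ± 1.03% and 19.98 ± 0.882% of HK1 and HK2, and ENO2 held 1.21 ± 0.0860% and 0.952 ± 0.0128% of the 3 enolases. PFKP held 56.4 ± 0.667% of the 3 phosphofructokinases in shControl and 60.0 ± 0.655% in shEphexin1, which was higher. The groups did not overlap for these 5 of the 6 shares compared. In the two-sided exact permutation test each gave p = 0.1, the smallest that 3 libraries against 3 allow (Benjamini-Hochberg adjusted p = 0.12 over the 6 shares), and p = 0.25, also the smallest possible, when paired by replicate. The share of ALDOC among ALDOA and ALDOC, 0.276 ± 0.0945% and 0.423 ± 0.145%, overlapped between the groups (exact permutation p = 0.3). LDHB, SLC2A3 and ENO2 all lie on chromosome arm 12p, whose expressed genes had a median log2 fold change of -0.43. The part of this shift in their shares was not tested. The share of PFKP rose while PFKP itself had a log2 fold change of -0.011 and PFKM one of -0.45.

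**Figure D3:**
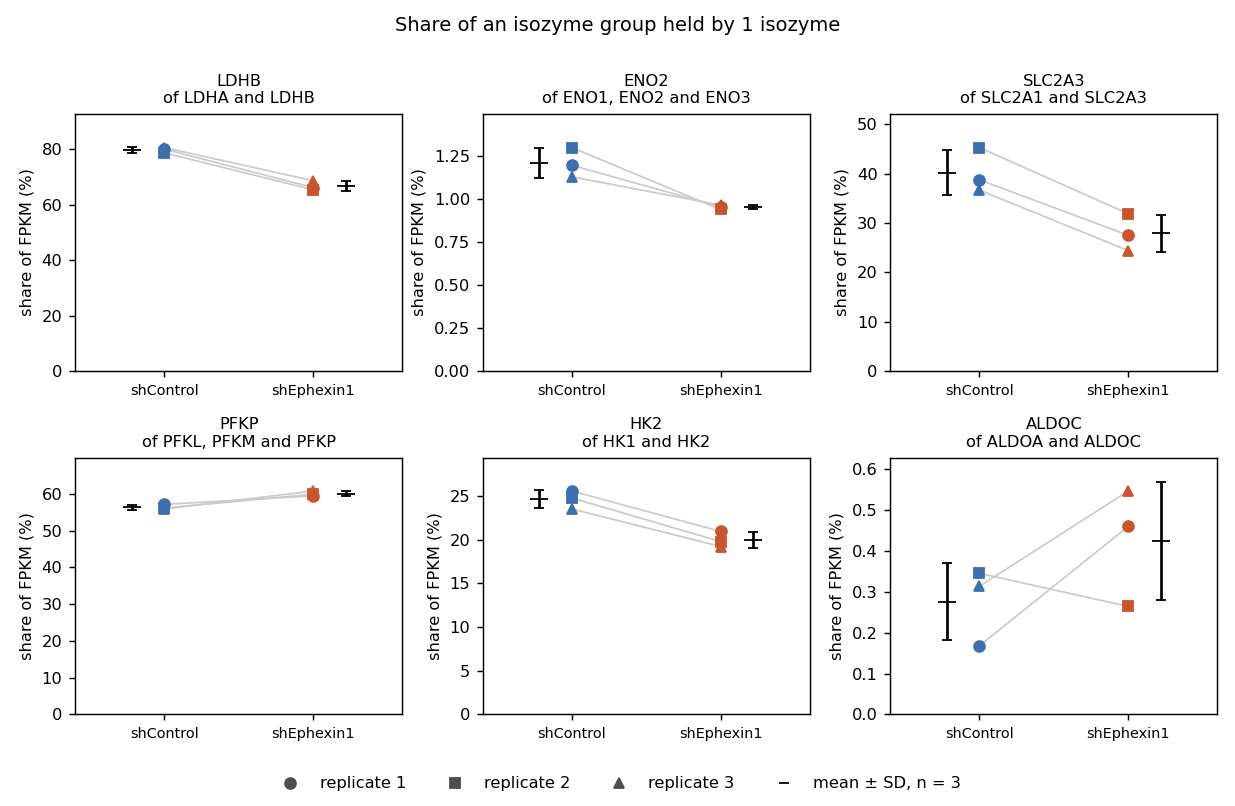
Share of the summed FPKM of an isozyme group held by the gene named in each panel (percent, vertical axes from 0) in each library, with symbols for the replicate number and black bars for mean ± SD (n = 3). LDHB is at 79.7% and 66.7% on average, SLC2A3, HK2 and ENO2 are also lower in all 3 shEphexin1 libraries, PFKP is higher, and ALDOC overlaps.

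The 19 enzymes of glycolysis and lactate production together held 1.638%, 1.572% and 1.695% of the summed FPKM of all genes in shControl and 1.415%, 1.29% and 1.419% in shEphexin1. GAPDH alone held 0.782 ± 0.0313% and 0.604 ± 0.0281% (SD, n = 3), and the other 18 held 0.853 ± 0.0349% and 0.771 ± 0.0459%. These shares are a description of the libraries and were not tested.

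Several of the downregulated genes share a chromosome arm. SLC2A3 (chr12:8071826-8171603, on GRCh37 as all positions of genes here), TPI1 (chr12:6976283-6980112), GAPDH (chr12:6643678-6647540), ENO2 (chr12:7022909-7032861) and LDHB (chr12:21788276-21910791) are all on the short arm of chromosome 12. All 5 were downregulated with the replicate block, beside 19.7% of all genes, and their median log2 fold change was -0.52. The 169 genes of 12p with a mean of at least 1 FPKM had a median of -0.43, and 84.6% of them were below 0, compared with a median of -0.038 and 55.2% below 0 over all 12211 such genes. With the arm medians subtracted, the median of the 5 genes was -0.063, and LDHB alone among them still passed the test without the block, at -0.39 on the log2 scale (limma adjusted p = 0.0214). The 354 genes of 10q, which carries HK1, PGAM1 and BNIP3, had a median of -0.30, and the 505 genes of 17q, which carries PDK2, SLC16A3 and ALDOC, had a median of -0.21. The 407 genes of 7q, the arm of BPGM, had a median of 0.30. Over all 42 genes, 4 were lower and 0 higher after subtraction of the arm medians, beside 3.34% lower, 3.3% higher and 6.64% in total of all genes with a position. They were PGK1 (log2 fold change -0.72, limma adjusted p = 0.00364), LDHB, PDK2 (-0.54, 0.0389) and BNIP3 (-0.38, 0.0464), while PGAM1 did not pass (-0.24, 0.352).

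The comparison was therefore repeated, after these values had been seen, with each gene set against its neighbours, the 10 nearest genes on each side with a mean of at least 1 FPKM (fewer near the ends of chromosomes). Genes overlapping a gene were not counted as its neighbours. For PGK1 (chrX:77166236-77384792) 19 of the 20 neighbours had a log2 fold change below 0, with a median of -0.54. These neighbours lay within chrX:73641328-99894988, and those of LDHB within chr12:15260717-26232825, so the regions compared are wide. The neighbours of LDHB had a median of -0.72, those of PDK2 (chr17:48172101-48189516) -0.68, those of BNIP3 (chr10:133781188-133795471) -0.31 and those of PGAM1 (chr10:99185948-99193201) -0.30. With the neighbour medians subtracted, PGK1, LDHB, BNIP3 and PGAM1 did not pass the test, with log2 fold changes of -0.32, -0.12, -0.35 and -0.24 and limma adjusted p values of 0.222, 0.655, 0.138 and 0.0914. The first 3 of them thus passed against the arm medians but not against the neighbour medians. The shift of these chromosome regions and the knockdown fall in the same libraries, so they cannot be told apart in this design.

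Some other genes lay at the edge of the range of their neighbours. For VHL (chr3:10183462-10195351), PDK3 (chrX:24483361-24568583), PCK2 (chr14:24563262-24579807) and PFKM (chr12:48498922-48540187), 0 of the 20 neighbours had a lower log2 fold change than the gene. These 4 were picked from the 42 by this rank. The share of all genes that lie lowest among their neighbours was not computed, so the rank is a description only. The neighbours of VHL had a median of 0.15, those of PDK3 -0.0075, those of PCK2 0.015 and those of PFKM -0.092. With the neighbour medians subtracted, VHL, PDK3 and PCK2 were downregulated, with log2 fold changes of -0.53, -0.83 and -0.64 (limma adjusted p = 0.0117, 0.0332 and 0.0206), and SLC2A1 was upregulated by 0.42 (0.0358), above 18 of its 20 neighbours. These 3 down and 1 up of 42 genes compare with 4.81% down, 5.68% up and 10.5% in total over all genes with neighbours. In total this is near the share over all genes, so the count is not a result about these genes. With the replicate block as well, 13 genes were lower and 4 higher, beside 14.1%, 13.5% and 27.7% over all genes, and LDHB was not among them (adjusted p = 0.108) while PGK1 (0.00465), BNIP3 (0.00643) and PGAM1 (0.0123) were. HK1, on 10q, was above all 20 of its neighbours, whose median was -0.27, and PFKFB3 was above 19 of its 20. HK1, PFKFB3 and PFKM did not pass without the block when the neighbour medians were subtracted (limma adjusted p = 0.222, 0.205 and 0.0931).

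**Figure D4:**
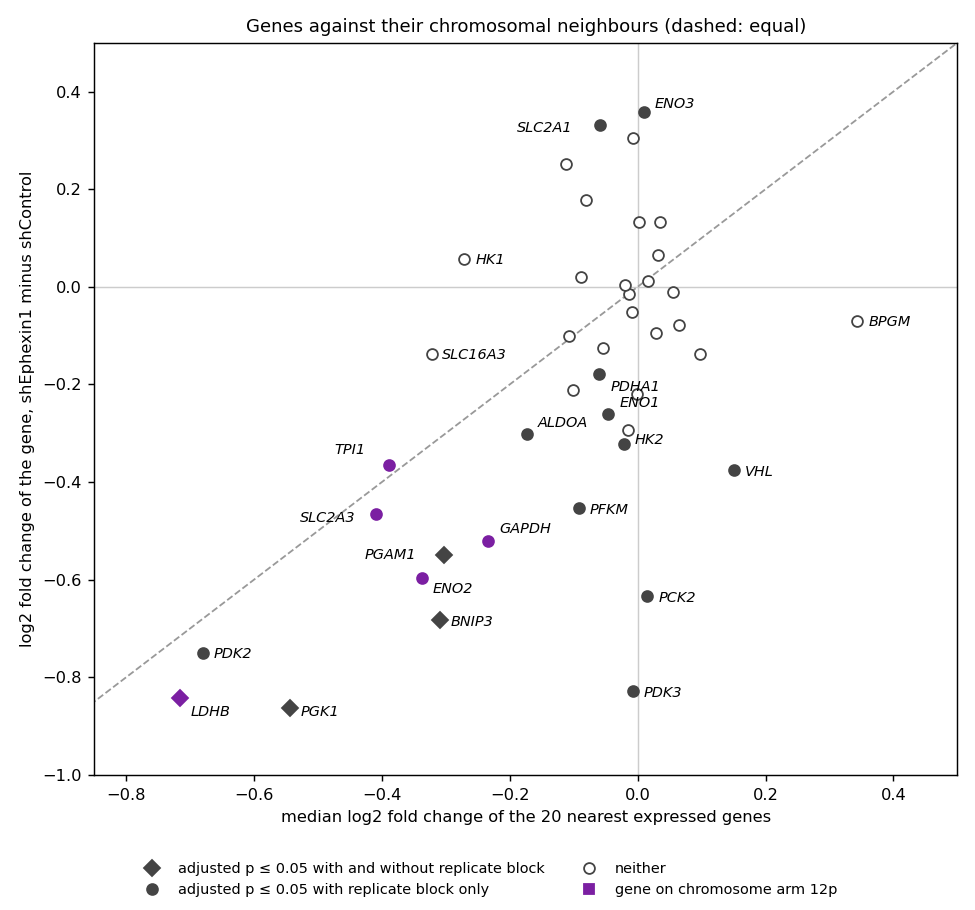
Log2 fold change of each of the 42 tested genes (vertical axis) against the median log2 fold change of its nearest expressed genes, up to 20 (horizontal axis), with the dashed line where the 2 are equal. LDHB, PDK2, TPI1 and SLC2A3 lie near the line, while PDK3, PCK2 and VHL lie well below it with neighbours near or above 0, and SLC2A1 lies above it.

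The rest of the pathway was read from 61 other sugar metabolism genes and 66 other hypoxia-linked genes. Of the sugar metabolism genes 54 were tested, and 1 fell and 1 rose without the block, 12 fell and 6 rose with it. These are 3.70% and 33.3% of the genes tested, beside 7.01% and 33.5% of all genes. GOT1, the cytosolic aspartate aminotransferase of the malate-aspartate shuttle, measured 40.88, 42.35 and 48.79 FPKM in shControl, and 30.8, 27.21 and 29.64 FPKM after knockdown (log2 fold change -0.59, limma adjusted p = 0.0288). PYGL, a glycogen phosphorylase, had FPKM values of 13.69, 14.0 and 16.68 in shControl against 21.46, 22.19 and 21.64 in shEphexin1 (log2 fold change 0.56, limma adjusted p = 0.0355). Both had groups that did not overlap. Without shEphexin1 replicate 2 the count of this list was 1, and without any of the other 5 libraries it was 0.

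Of the 66 hypoxia-linked genes 61 were tested, and 5 fell and 6 rose without the block, 18 fell and 13 rose with it. These are 18.0% and 50.8% of the genes tested, beside 7.01% and 33.5% of all genes. This list, like that of the sugar metabolism genes, was drawn up with earlier results of these data known. Its shares are therefore a description and not a test. With a fold difference of at least 2 and an adjusted p of at most 0.025, 4 of the 61 genes were called, beside 1.89% of all genes tested. All 4 were lower. PPP1R3C, which targets a phosphatase to glycogen, was at 2.002, 1.978 and 1.838 FPKM in the control libraries and 0.3854, 0.4566 and 0.4378 FPKM in the knockdown libraries (log2 fold change -1.96, limma adjusted p = 0.00245). CXCR4, a chemokine receptor, measured 0.909, 0.572 and 0.8617 FPKM in shControl, and 0.1285, 0.1063 and 0.0739 FPKM after knockdown (log2 fold change -2.105, limma adjusted p = 0.00893). These values are low, with the knockdown libraries near the filter of 0.1 FPKM. Under other settings of the test the log2 fold change of CXCR4 ranged from -2.81 to -0.69, with a limma adjusted p of up to 0.0647. DDIT4 (REDD1), an inhibitor of mTORC1 induced by stress and low oxygen, had FPKM values of 44.34, 34.29 and 51.7 in shControl against 21.89, 13.03 and 20.3 in shEphexin1 (log2 fold change -1.25, limma adjusted p = 0.0245). The carbonic anhydrase gene CA2 was at 11.85, 11.92 and 11.19 FPKM in the control libraries and 4.788, 5.513 and 4.418 FPKM in the knockdown libraries (log2 fold change -1.24, limma adjusted p = 0.00380). All 4 had groups that lay apart, and their log2 fold changes with the neighbour medians subtracted were -1.63, -2.17, -0.89 and -0.96.

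In the other direction, the transferrin receptor gene TFRC measured 34.71, 33.74 and 32.36 FPKM in shControl, and 63.0, 75.21 and 56.32 FPKM after knockdown (log2 fold change 0.94, limma adjusted p = 0.00930). BHLHE40, a transcriptional repressor, had FPKM values of 3.243, 1.969 and 2.567 in shControl against 5.16, 5.181 and 4.564 in shEphexin1, and TMEM45A was at 1.275, 1.053 and 1.612 FPKM in the control libraries and 2.789, 2.748 and 2.599 FPKM in the knockdown libraries. The log2 fold change was 0.94 for BHLHE40 (limma adjusted p = 0.0362) and 1.01 for TMEM45A (0.0270). EPO, the erythropoietin gene, was at or below 0.284 FPKM in shControl and between 0.595 and 0.843 FPKM in shEphexin1 (log2 fold change 1.30, limma adjusted p = 0.0455). TMEM45A and EPO thus differed by more than 2-fold upward but missed the adjusted p of 0.025. STC2, a secreted glycoprotein gene, fell from 4.17 ± 0.425 to 2.17 ± 0.462 FPKM (SD, n = 3). The remaining calls, P4HA2 and ERRFI1, fall outside the rule for named genes and rose with log2 fold changes of 0.88 and 0.69. The 11 hypoxia-linked calls thus ran in both directions, and their count rested on single libraries: it was 2, 6 and 6 without shControl replicates 1, 2 and 3, and 3 and 5 without shEphexin1 replicates 1 and 3.

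**Figure D5:**
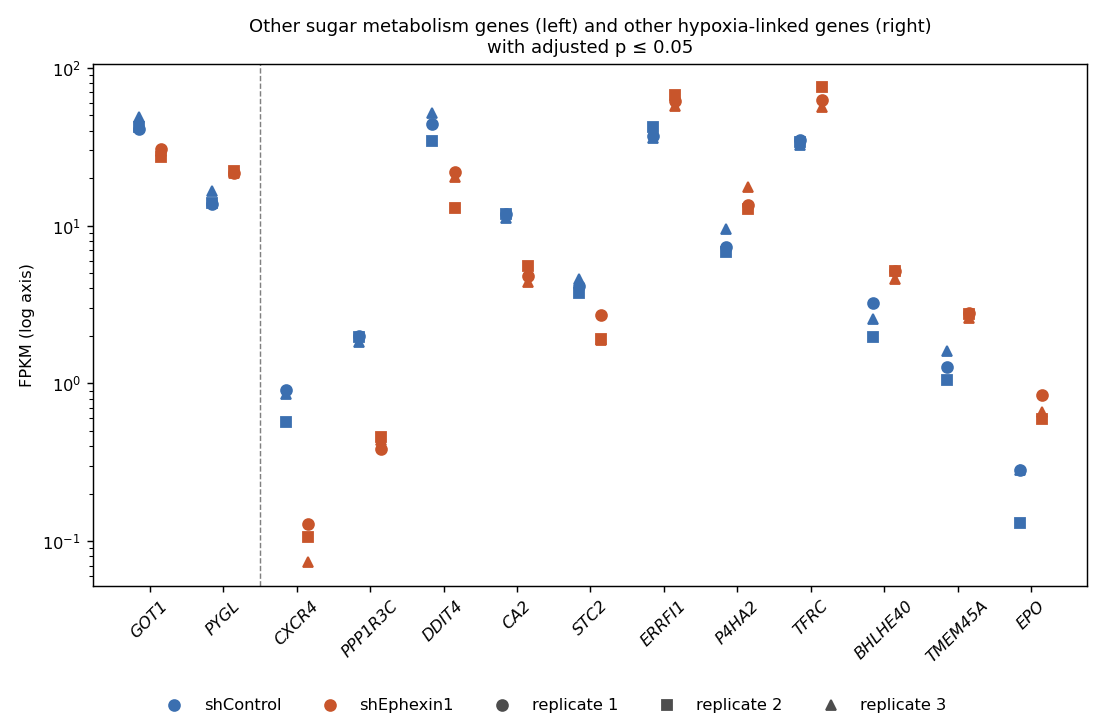
FPKM (log axis) in each library of the 2 other sugar metabolism genes and the 11 other hypoxia-linked genes past an adjusted p of 0.05, with blue for shControl, orange for shEphexin1 and symbols for the replicate number. In each of the 13 genes the groups lie apart, lower in shEphexin1 for GOT1, CXCR4, PPP1R3C, DDIT4, CA2 and STC2 and higher for the other 7.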

How the data were processed

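Total RNA of 6 NCI-H1299 libraries (TRIzol, stranded total RNA kit) was sequenced. Mapping by the authors used TopHat 2.0.13 and GRCh37/hg19, and they deposited FPKM per gene and library from Cuffdiff (Cufflinks 2.2.1), with geometric normalization and pooled dispersion. The gene annotation is not given in the sources used here, and depth is unknown. All 6 value columns were used.

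The deposited FPKM were compared with limma 3.58.1 in R 4.3.3 on log2(FPKM + 0.1) (lmFit, eBayes with trend) over the 16020 genes that reached 0.1 FPKM in 3 or more libraries. P values were adjusted by Benjamini-Hochberg over all of them. Positions come from GENCODE release 44 on GRCh37, matched by symbol for 23759 names, and promoters from RefSeq. The code was tested on simulated data.

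Deviations of same-numbered libraries from their group means correlated across 12638 genes (r = 0.234, 0.639 and 0.513 for replicates 1, 2 and 3), so the numbers were taken to pair the samples. For libraries with different numbers r ranged from -0.569 to 0.149. The highest of these, shControl replicate 3 with shEphexin1 replicate 1, was not far below the value of replicate 1. In every library the deviations went with GC content across genes, with Spearman's rho of -0.797 and -0.867 in replicate 2 of shControl and shEphexin1, 0.432 and 0.583 in replicate 1, and 0.767 and 0.800 in replicate 3. The sources name no shared batch.

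The 47 genes and the lists were chosen with earlier results of these data known. Every one of the 47 is named. Values per library are given for genes past a call in either fit, the most abundant gene of each step, genes on 12p, the HIF and oxygen-sensing genes and genes listed at 0. Of the other pathway genes, those past the fold call are named, and up to 5 more per list with the largest fold change. Further genes of the pyruvate dehydrogenase step and the oxygen sensors HIF1AN and EGLN2 are named beside the members of their groups. Alternatives were other pseudocounts and filters, scalings, a replicate block, GC and length correction, a term for replicate 2, replicates 1 and 3 alone, subtraction of arm or neighbour medians, and each library left out in turn.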

Additional observations from a re-analysis of the deposited data

How the results depend on the processing

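Of 23 alternatives per result, 3 (the replicate block with arm medians subtracted, and neighbour medians subtracted without and with the block) were added after seeing the data. The count of the 47 genes called with a 2-fold difference was 0 under all of them. The count past an adjusted p of 0.05 was 19 with the replicate block, 21 with GC and length correction, 25 with both, 17 with a term for replicate 2, 12 with replicates 1 and 3 alone, 16 with the replicate block and arm medians subtracted, 17 with the block and neighbour medians subtracted, and 2 to 4 with 1 library left out. The replicate block removed no call among the genes named. In the same order the other sugar metabolism genes gave 18, 19, 22, 15, 7, 16, 11 and 0 to 1, and 0 with eBayes without trend, and the other hypoxia-linked genes gave 31, 30, 35, 29, 20, 27, 23 and 2 to 11. Over all genes the share past this limit was 7.01% in the first fit and 33.5% with the replicate block. It was 17.3% with replicates 1 and 3 alone and 27.7% with the block and neighbour medians subtracted. With the block and arm medians subtracted, 2396 of all genes were lower and 2400 higher. For the other settings the share over all genes is not given, so those counts are not a result about these genes.

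The median log2 fold change of the 42 tested genes stayed below 0. It was -0.12 with a pseudocount of 1 FPKM, -0.10 with median centring, -0.060 with quantile normalization, -0.19 with GC and length correction (with or without the replicate block), -0.075 with arm medians subtracted (with or without the block), -0.11 with neighbour medians subtracted (with or without the block), and -0.19 to -0.12 with 1 library left out. Among those of the 42 genes with a call there were 5 sign changes. ALDOA, TPI1 and ENO1 were at 0.029, 0.0017 and 0.12 with quantile normalization. TPI1 was at 0.092 with arm medians subtracted, with or without the block. Of 711 alternatives over 31 genes, 538 kept direction and side of the threshold, 97 gained a call and 71 lost one. Of the 23 genes past the threshold in neither fit, 14 changed sign in some alternative. No share of an isozyme group changed direction. With 1 library left out, the difference in LDHB share ranged from -14.0 to -12.4 points, SLC2A3 -14.3 to -9.78, HK2 -5.19 to -4.16, ENO2 -0.295 to -0.210, PFKP 3.31 to 4.04 and ALDOC 0.0864 to 0.228. The causes were not tested. With FPKM alone, counting error cannot be given, and values near 0 carry the least information.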
